A study of Mus musculus with 2 samples.

Results

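Sclerotome cells were examined in single-cell RNA-seq of mouse somites at embryonic day (E) 9.5 and E11.5. They were chosen by measured values, namely the unique molecular identifiers (UMIs, 1 per captured transcript) that each cell holds for a few genes. A cell was taken when Pax1, Pax9 and Nkx3-2 together gave at least 3 UMIs from at least 2 of these genes. Myf5, Sox2, Epcam and Col9a1, genes of muscle, neural tube, epithelium and cartilage, had to be at 0, and Scx, a tendon gene, below 2. The rule selected 222 of 19446 kept cells, 157 of 9851 at E9.5 and 65 of 9595 at E11.5. Kept cells had at least 200 and fewer than 6500 genes and under 15% mitochondrial UMIs.

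All embryos were wild type C57BL/6 mice, and no genetic change, reporter or drug was used. Somites lying between the limb buds were dissected from 3 embryos at each stage and pooled before capture, so each stage was 1 library. A difference between stages therefore has no replicate check, no test was possible, and stage cannot be told apart from library. The libraries held 10121 barcodes with 149368952 UMIs at E9.5 and 10167 barcodes with 136655763 UMIs at E11.5, and 30 barcodes were present in both, 0 of them in sclerotome cells. The sclerotome cells together held 2314714 UMIs in the earlier library and 755133 UMIs in the later, so E11.5 levels are the less precise.

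Somites split into a dorsal dermomyotome and a ventral sclerotome. The sclerotome forms when Sonic hedgehog from the notochord and floor plate induces Pax1 and Pax9 and the ventral cells turn into mesenchyme, and it gives rise to vertebrae, ribs, intervertebral discs and, at the border with the myotome, axial tendons. Each sclerotome is divided into an anterior and a posterior part, and motor axons and neural crest cells cross only the anterior part.

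Pax1 (chr2:147361925-147393295, GRCm38, plus strand) and Pax9 (chr12:56691767-56712822, plus strand), paired-box transcription factors that mark the sclerotome, carried the selection. Of the E9.5 cells 154 of 157 held UMIs of both, and of the E11.5 cells 64 of 65. Nkx3-2, a homeobox gene that acts after Pax1 and Pax9, gave 5 and 2 UMIs in the selected cells and 14 and 23 UMIs in all kept cells, so it hardly entered the rule. Whether the annotation used for counting covers the whole 3′ end of its transcript was not tested. The label therefore rests on Pax1 and Pax9. Levels are given as UMIs per 1000000 UMIs of the selected cells (UPM), with the exact 95% Poisson interval. Pax1 stood at 303 UPM (281 to 326) at E9.5 and 673 UPM (615 to 734) at E11.5, and Pax9 at 98.9 UPM (86.5 to 113) and 269 UPM (233 to 308). These genes chose the cells, so the values only describe them. In single cells Pax1 ranged from 0.78 to 9.38 UMIs per 10000 at E9.5 and from 0.44 to 28.5 at E11.5.

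Pax1 was also read in cells chosen by another gene, Sox2. Among cells with at least 3 Sox2 UMIs (the Sox2 class, mostly of neural type, with 1823 and 273 cells), 5.87% at E9.5 and 3.66% at E11.5 held a Pax1 UMI. Their median depth was 13584 and 12881 UMIs, against 13512 and 10600 in the sclerotome cells. The Sox2 class held 301 and 34 Pax1 UMIs in all. Of the cells that met the marker part of the rule, 59 of 472 at E9.5 and 7 of 694 at E11.5 held Sox2. These shares are not a pure background, since Pax1 made by the cells, doublets and stray UMIs were not told apart. A second comparison group, the Pax3 class, had at least 2 UMIs of Pax3, a gene of dermomyotome, and 0 of Pax1, Pax9, Nkx3-2, Sox2, Epcam, Scx and Col9a1 (781 and 271 cells). It was named by its rule because it also held the neural crest gene Sox10 at E9.5 (16.4 UPM) and the muscle gene Ttn at E11.5 (131 UPM), both at 0 UMIs in the sclerotome cells of that stage. Twist1 and Foxc2, mesenchyme and somite transcription factors that the rule did not use, bore on the label. Twist1 had 562 and 356 UPM at the successive stages in sclerotome cells, and 49.9 and 33.7 UPM in the Sox2 class. Foxc2 had 150 and 79.5 UPM, against 11.5 and 2.08 UPM in the Sox2 class. Classes of other somite cells held both genes too. Twist1 had 176 and 223 UPM in the Pax3 class and 498 and 318 UPM in the cartilage precursor class described below. Foxc2 had 70.3 and 4.31 UPM in the Pax3 class and 125 and 85.3 UPM in the cartilage precursor class.

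The selected cells made up 1.59% of kept cells at E9.5 (exact binomial 95% interval 1.36% to 1.86%) and 0.677% at E11.5 (0.523% to 0.863%), counting error only. The order of these shares turned when genes that had to be absent were allowed. Before those conditions 472 E9.5 cells and 694 E11.5 cells qualified, and Col9a1, a cartilage collagen gene, was present in 270 and 590 of them. Scx at 2 or more UMIs was found in 2 of the 472 and in 193 of the 694. With the Col9a1 condition alone dropped, the counts were 390 cells (3.96%) at E9.5 and 454 cells (4.73%) at E11.5. With cells thinned to 5000 UMIs before the rule, and shallower cells left out, the shares were 0.719% and 1.08%, again higher at E11.5. These were 67 and 96 cells. Thinning can also remove UMIs of the genes required absent, so they are not the same cells at a lower depth. Cells without Col9a1 were 40.3% of the wider set, with the Col9a1 condition alone dropped, at E9.5 and 14.3% at E11.5. The E11.5 cells described here are thus the Pax1 and Pax9 cells with no captured Col9a1 transcript. Values from the wider set are given beside some of the genes named below. Col9a1 had a UMI in 5.05% of the Sox2 class at E9.5 and 6.23% at E11.5.

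Just inside the threshold lay 34 E9.5 cells and 6 E11.5 cells with a marker sum of exactly 3, and just outside lay 24 and 11 cells with a sum of 2 from 2 genes. Twist1 had 578 UPM inside and 492 UPM outside at E9.5, and 470 and 308 UPM at E11.5. Foxc2 had 173 UPM inside and 116 UPM outside at E9.5, and 83.0 and 17.6 UPM at E11.5. Sox9, a cartilage transcription factor, had 170 and 133 UPM at E9.5 and ran the other way at E11.5, with 41.5 UPM inside and 141 UPM outside. The E11.5 values of these 3 genes rest on 6 and 11 cells, and no interval was computed for them. A further 252 and 273 cells had 3 or more UMIs of only 1 marker gene and were left out, and these had 578 and 757 UPM of Twist1, at E11.5 more than the selected cells. Foxc2 ran the other way at E11.5, with 125 and 9.66 UPM in these left-out cells against 150 and 79.5 UPM in the selected cells. Depth differed between stages, with medians of 13512 UMIs and 3562 genes per cell at E9.5 and 10600 UMIs and 3272 genes at E11.5. Scrublet, a caller of doublets (2 cells in 1 droplet), marked 3 sclerotome cells in each library, and these were kept.

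Markers of other cell types were summed over lists. Over 10 neural tube genes the sum was 36.3 UPM at E9.5 and 25.2 UPM at E11.5, over 10 muscle genes 33.7 and 25.2 UPM, and over 9 red blood cell genes 19.9 and 60.9 UPM. Of the neural tube genes, 3 were at 0 in E9.5 cells and 7 in E11.5 cells, and the most abundant was Lin28a, which is also an early gene of other tissues, with 61 of 84 UMIs and then Nkx6-1 with 14. The most abundant muscle genes were Pax3 (39 UMIs) and Mylpf (7 UMIs). Endothelial genes summed to 57.9 and 55.6 UPM, led by Egfl7 at E9.5 with 85 of 134 UMIs, and 54 of the E9.5 UMIs and 25 of the 42 E11.5 UMIs lay in 1 cell each. Intermediate mesoderm genes gave 1.73 and 58.3 UPM, led at E11.5 by Osr1 with 31 UMIs, and 18 of the 44 UMIs lay in 1 cell. Lateral plate genes gave 6.91 and 76.8 UPM, led at both stages by Foxf1, and 21 of the 58 E11.5 UMIs lay in 1 cell. The dermis list gave 85.5 and 200.0 UPM, led by Twist2 at E9.5 and Zic1 at E11.5, which are also in the list of somite transcription factors. The neural crest list gave 78.2 and 50.3 UPM, of which Ets1, also an endothelial and mesenchymal gene, made up 170 of 181 and 34 of 38 UMIs, and 4 of its 6 genes were at 0 at each stage. Neuron, white blood cell, epithelium and notochord lists were each at or below 21.2 UPM. One E11.5 cell of 26041 UMIs held all 5 Gata4 UMIs and 50 of 51 Myl7 UMIs, both heart genes, next to 8 Pax1 and 4 Pax9 UMIs. It was kept, and results without it are given where they differ. The part of such cells in the stage differences was not tested beyond leaving that cell out.

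Set against all other kept cells of the same library, sclerotome cells at E9.5 were marked by Bmp3, a Bmp family ligand, at 38.9 against 5.52 UPM, and by Nrtn, a neurotrophic ligand of the Gdnf family, at 99.4 against 23.2 UPM. Also among the 10 ranked highest were AI646519, Heyl, Fcrl6, Foxl1, 1600002D24Rik, Bpifc and Itgam. The last 3 of these rested on 4, 14 and 2 UMIs. At E11.5, March11 had 83.4 against 10.6 UPM and AI646519, an unnamed transcript, 110 against 18.5 UPM. AI646519 was in the highest 10 at both stages, at 57.0 against 11.7 UPM at E9.5. The other E11.5 genes were Atp13a4, Myl7, Blnk, Ccl2, Gm28809, Gm26784, Gm13306 and Igfbp7. Of these, Atp13a4, Igfbp7, Gm26784 and Gm13306 came from 1 cell each, the last pair on 1 UMI each. Gm28809 had 2 UMIs, Blnk 6 UMIs and Myl7 50 of its 51 UMIs in 1 cell. The rule chose these cells, so this is a description without a test.

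The sclerotome cells were then compared between stages, to ask how the same marker-defined population differed 2 days apart. The comparison covered the 4154 genes with at least 100 UMIs over both stages. In E11.5 cells 281 genes (6.76%) were at least 2-fold higher and 219 genes (5.27%) at least 2-fold lower, and the median log2 ratio of E11.5 over E9.5 was -0.02. These counts are sizes, not tests. The highest-ranked genes included Nfia, Nfib and Igf1 and the lowest-ranked Nr6a1, Lin28b, Trim71 and Prtg, early developmental regulators. Genes were ranked by the bound of the 95% interval nearest 0, so that thin counts ranked low. The scatter of gene levels at both stages places these genes.

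**Figure D1:**
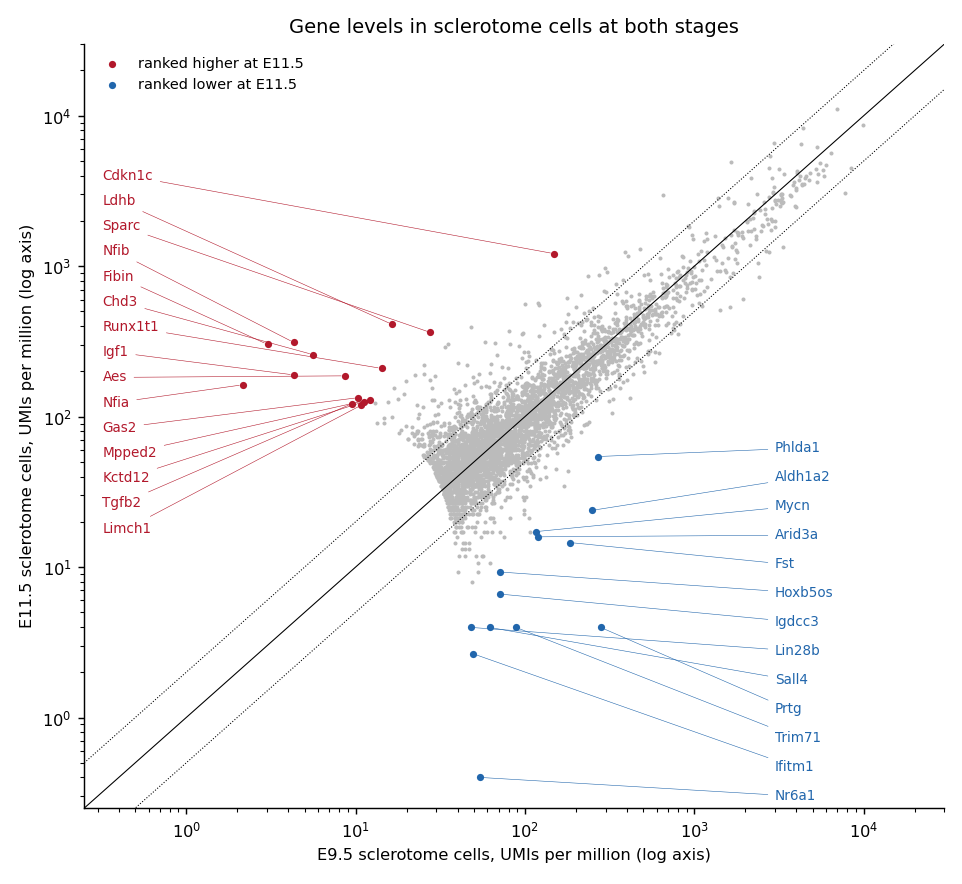
Each point is a gene with at least 100 UMIs over both stages, with its level in E9.5 sclerotome cells (x axis) and E11.5 sclerotome cells (y axis) in UPM on log axes. The solid line marks equal levels, dotted lines 2-fold. Genes ranked highest (red) and lowest (blue) are named, except those not reported here, which are not drawn. Nr6a1, at 0 UMIs in E11.5 cells, is drawn at the lower edge.

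Among the 15 genes ranked higher at E11.5, 4 had 10 or fewer UMIs in E9.5 cells, namely Fibin, Nfib, Nfia and Igf1. Fibin (chr2:110360917-110363183, minus strand), a secreted factor, went from 7 UMIs in 157 cells to 228 UMIs in 65 cells, or 3.02 to 302 UPM (log2 6.64, 95% interval 5.58 to 7.97). Nfib and Nfia, nuclear factor I transcription factors, went from 4.32 to 311 UPM and from 2.16 to 163 UPM. The rise was spread over cells, since 80.0% of E11.5 cells held Fibin, 86.2% Nfib and 70.8% Nfia, against 25.3%, 79.5% and 56.4% of the Sox2 class. At an equal depth of 5000 UMIs per cell, which 58 E11.5 and all 157 E9.5 cells reached, Nfib was seen in 1.91% of E9.5 cells and 70.7% of E11.5 cells, and in 0.831% and 48.3% of the Sox2 class. Nfib had log2 ratios of 6.17 in sclerotome cells, 7.57 in the Pax3 class and 6.52 in the Sox2 class.

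Igf1, insulin-like growth factor 1, rose from 4.32 UPM (2.07 to 7.94) to 189 UPM (160 to 223), with UMIs in 55.4% of E11.5 cells against 7.69% of the Sox2 class (41.4% and 4.12% at equal depth). In the wider set it reached 100.3 UPM, with a log2 ratio of 4.47 against 5.45 here. In the Pax3 class Igf1 went from 8.18 to 47.8 UPM and in the Sox2 class from 1.56 to 31.2 UPM, while the tendon progenitor class (at least 2 Scx UMIs and 0 of Col9a1, Myf5, Sox2 and Epcam) had 286 UPM at E11.5. Tgfb2, a Tgf-beta ligand, rose from 9.50 to 122 UPM and Sparc, a collagen-binding matrix glycoprotein, from 27.6 to 363 UPM. Cdkn1c, which encodes the cell cycle inhibitor p57, rose from 149 to 1212 UPM. Ldhb, the lactate dehydrogenase subunit of oxidative tissues, rose from 16.4 to 411 UPM. Chd3, a chromatin remodeller, rose from 5.62 to 258 UPM in sclerotome cells, a log2 ratio of 5.52, against 3.95 in the Pax3 class, 3.99 in the cartilage precursor class and 0.78 in the Sox2 class. The difference between classes was not tested. Aes and Runx1t1, co-repressors, had log2 ratios of 4.43 and 3.88, and Gas2, Kctd12, Limch1 and Mpped2 ranged from 3.42 to 3.69. In the wider set Runx1t1 had 2.29, Gas2 2.95, Kctd12 2.57, Limch1 3.22 and Mpped2 3.41.

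The genes ranked lower at E11.5 included several regulators of the early embryo. Prtg, an immunoglobulin-family receptor of early mesoderm and neural tube, fell from 648 UMIs (280 UPM, 259 to 302) to 3 UMIs (3.97 UPM, 0.82 to 11.6). Nr6a1 (chr2:38723370-38927688, minus strand), an orphan nuclear receptor that controls trunk vertebra number, had 125 UMIs in E9.5 cells and 0 in E11.5 cells. Against a floor of 3 UMIs over the E11.5 cells it was at least 13.6-fold lower, which takes the E9.5 count as exact. With the counting error of both counts the bound of the log2 ratio was -3.45, a smaller difference. Fst, which binds and blocks activins, fell from 184 to 14.6 UPM. Aldh1a2, the main retinoic acid synthesising enzyme of somites, fell from 249 to 23.8 UPM, and 16 of its 18 E11.5 UMIs lay in 1 cell. Its log2 ratio was -3.39 here and -5.09 in the wider set. Ifitm1 fell from 49.7 to 2.65 UPM, with a log2 ratio of -4.23 here and -2.42 in the wider set, and Phlda1 from 268 to 54.3 UPM. Hoxb5os, a transcript antisense to the Hoxb cluster, fell from 71.7 to 9.27 UPM; the strand setting of the counts was not given in the sources used here.

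Many of these differences appeared in the other classes of the same libraries too. Of the 281 higher genes, 110 (39.1%) were also at least 2-fold higher in the Pax3 class and 122 (43.4%) in the Sox2 class. Over all 4154 genes, 3.39% were at least 2-fold higher in the Pax3 class and 4.74% in the Sox2 class. Of the 219 lower genes, 69 (31.5%) and 63 (28.8%) were also at least 2-fold lower there, against 2.94% and 2.41% of all genes. In the wider set with or without Col9a1, which includes the sclerotome cells themselves, the numbers were 169 (60.1%) and 120 (54.8%), against 4.48% and 3.39% of all genes. These classes come from the same 2 libraries, so they are not independent of each other.

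The developmental timing list held genes of the Lin28 and let-7 circuit and others, such as Nfia and Nfib. In that circuit Lin28 proteins block the maturation of let-7 microRNAs in early embryos, and let-7 later represses many early genes. Of 14 compared genes 7 were at least 2-fold lower and 3 higher (Nfia, Nfib and Dnmt3a), against 5.27% and 6.76% of all compared genes. The median log2 ratio of the list was -1.65, against -0.73 in the wider set and -0.74 in the Pax3 class. Lin28b, the RNA-binding let-7 inhibitor, fell from 111 to 3 UMIs (48.0 to 3.97 UPM). Trim71, a let-7 target that keeps progenitors immature, fell from 205 to 3 UMIs (88.6 to 3.97 UPM). Sall4, Igdcc3, Arid3a, Mycn and Myc had log2 ratios from -3.96 to -2.61. Hmga2, another well-known let-7 target, stayed high, at 472 UPM (445 to 501) and 535 UPM (484 to 590). Igf2bp1, Igf2bp2 and Igf2bp3 had log2 ratios from -0.69 to 0.11. Mycn had -2.75 here and -0.88 in the wider set, and Sall4 -3.96 and -2.46. In the Pax3 and Sox2 classes Lin28b had log2 ratios of -2.98 and -2.87 and Trim71 of -3.44 and -3.20.

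**Figure D2:**
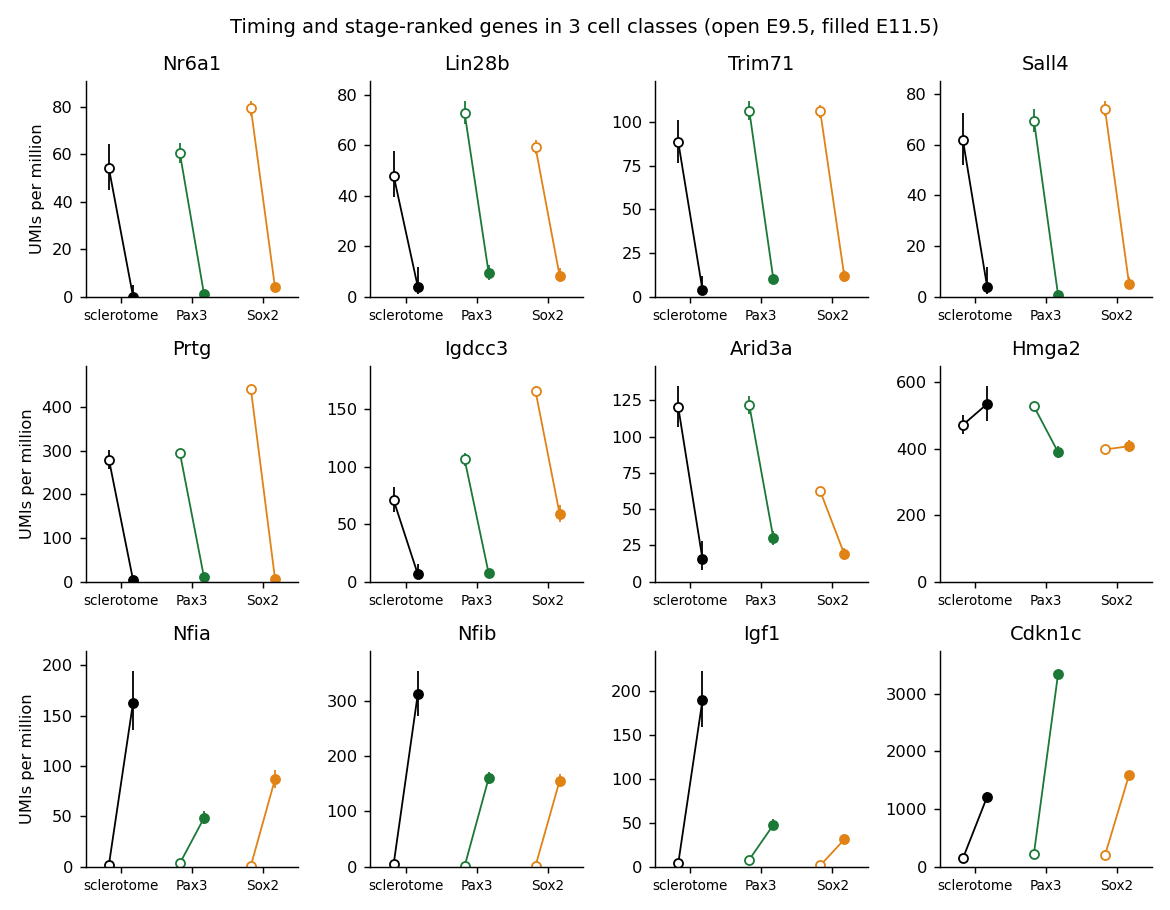
Levels (UPM, each y axis from 0) of 12 genes at E9.5 (open) and E11.5 (filled) in sclerotome cells (black), the Pax3 class (green) and the Sox2 class (orange), with exact 95% Poisson intervals. Lin28b, Trim71, Nr6a1 and Prtg drop in all 3 classes, Hmga2 stays high, and Igf1 reaches 189 UPM in sclerotome cells.

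The let-7 sequences are shown because several of the lowest-ranked genes belong to this circuit. The microRNAs themselves were not measured in these libraries. All 9 mouse let-7 family 5p microRNAs in RefSeq (GRCm38.p6) have the same seed, bases 2 to 8, given in capitals.
mmu-let-7a-5p: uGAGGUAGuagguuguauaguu
mmu-let-7d-5p: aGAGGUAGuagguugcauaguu
mmu-let-7g-5p: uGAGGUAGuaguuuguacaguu
mmu-miR-98-5p: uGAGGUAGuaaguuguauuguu
The complement of the seed, CTACCTC, was searched on the transcript strand of each gene's longest 3′ untranslated region (GENCODE M21, GRCm38), a choice made after the gene values were seen. It was found in 370 of 4117 compared genes with such a region (8.99%), in 30 of 217 lower genes (13.8%) and in 27 of 273 higher genes (9.89%). Of the 15 lowest-ranked genes, 7 of the 14 with a region held it, namely Arid3a, Igdcc3, Lin28b, Nr6a1, Prtg, Sall4 and Trim71. Of the 15 highest-ranked, 3 of 15 held it (Igf1, Nfia and Runx1t1). The regions differed in length, with medians of 1012 bases over all compared genes and 1606 bases over the lowest-ranked. In the timing list 10 of 14 genes held it, a list chosen with let-7 targets in mind. Nr6a1 had 8 matches, Lin28b and Trim71 had 4 each, and so did Hmga2, which was not lower. One match of each is printed with the complement of the seed in capitals, and a match is not shown to be a used site.
Nr6a1, chr2:38727449-38727470, minus strand: gttgacaaagacaaCTACCTCa
Lin28b, chr10:45381022-45381043, minus strand: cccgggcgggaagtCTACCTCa
Trim71, chr9:114512472-114512493, minus strand: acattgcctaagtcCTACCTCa
Prtg, chr9:72912559-72912580, plus strand: cctctgctgaatagCTACCTCa
Igdcc3, chr9:65185708-65185729, plus strand: gtgactctcagcacCTACCTCa
Hmga2, chr10:120364224-120364245, minus strand: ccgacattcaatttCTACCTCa

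The transcription factors of sclerotome and somite moved in both directions, with 6 of 15 compared genes at least 2-fold higher and 4 lower, against 6.76% and 5.27% of all genes. Tcf15 (paraxis), needed for somite epithelium, went from 330 UPM (307 to 354) to 131 UPM (107 to 160), Meox1 from 432 to 192 UPM and Prrx2 from 119 to 51.6 UPM. The Ebf genes, helix-loop-helix factors of mesenchyme, rose together. Ebf1 went from 65.2 to 171 UPM, Ebf2 from 38.0 to 154 UPM and Ebf3 from 23.3 to 98.0 UPM. Prrx1, a mesenchyme homeobox gene, went from 19.9 to 86.1 UPM, with 19 of its 65 E11.5 UMIs in 1 cell, and Zic1 from 39.7 to 106 UPM. Twist1, Foxc1, Foxc2, Foxd1 and Meox2 stayed within 2-fold, with log2 ratios from -0.92 for Foxc2 to 0.79 for Foxc1. In the Pax3 class the same genes fell, with log2 ratios of -4.03 for Foxc2, -2.45 for Foxc1, -3.08 for Foxd1 and -2.42 for Meox2, while Twist1 had 0.35. The difference between classes was not tested.

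Cartilage genes were compared although cells with Col9a1 were left out. Of 5 compared, 4 were at least 2-fold higher at E11.5, against 6.76% of all genes, and Col9a1 itself was at 0 by the rule. Col2a1, the main cartilage collagen, rose from 58.3 UPM (48.9 to 69.0) to 313 UPM (274 to 355) and was present in 83.1% of E11.5 cells, against 68.1% of the Sox2 class (65.5% and 38.6% at equal depth). Col11a1 rose from 17.7 to 131 UPM, Trps1 from 22.9 to 119 UPM and Pth1r, the receptor of parathyroid hormone-related protein, from 22.0 to 74.2 UPM. Sox9, the master transcription factor of cartilage, was at 160 UPM (144 to 177) and 197 UPM (167 to 232), a log2 ratio of 0.30. In the wider set the log2 ratios were 1.45 for Sox9 and 3.44 for Col2a1, and the levels at E11.5 were 590 and 911 UPM. For comparison, the cartilage precursor class (at least 2 Col9a1 and 3 Col2a1 UMIs and 0 of Myf5, Sox2 and Epcam, 205 and 1270 cells) had 578 UPM of Sox9 and 870 UPM of Col2a1 at E11.5.

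Of 18 compared matrix genes 9 were at least 2-fold higher and 1 lower, against 6.76% and 5.27% of all genes, with a median log2 ratio of 0.96 (0.54 in the wider set) against -0.02 over all genes. The fibrillar collagens Col1a1, Col1a2 and Col3a1 rose from 25.5 to 192 UPM, 82.1 to 302 UPM and 178 to 481 UPM. Lum, which encodes the collagen-binding proteoglycan lumican, rose from 28.1 to 128 UPM, Vcan from 149 to 367 UPM and Fn1 from 101 to 229 UPM. Ptn, a heparin-binding growth factor, rose from 193 to 428 UPM, but 86 of its 323 E11.5 UMIs lay in 1 cell. Has2, the hyaluronan synthase, fell from 63.5 UPM (53.7 to 74.6) to 17.2 UPM (9.17 to 29.4). Mdk, midkine, had a log2 ratio of 0.61. Has2 at E9.5 was 63.5 UPM in sclerotome against 10.5 UPM in the Pax3 class.

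**Figure D3:**
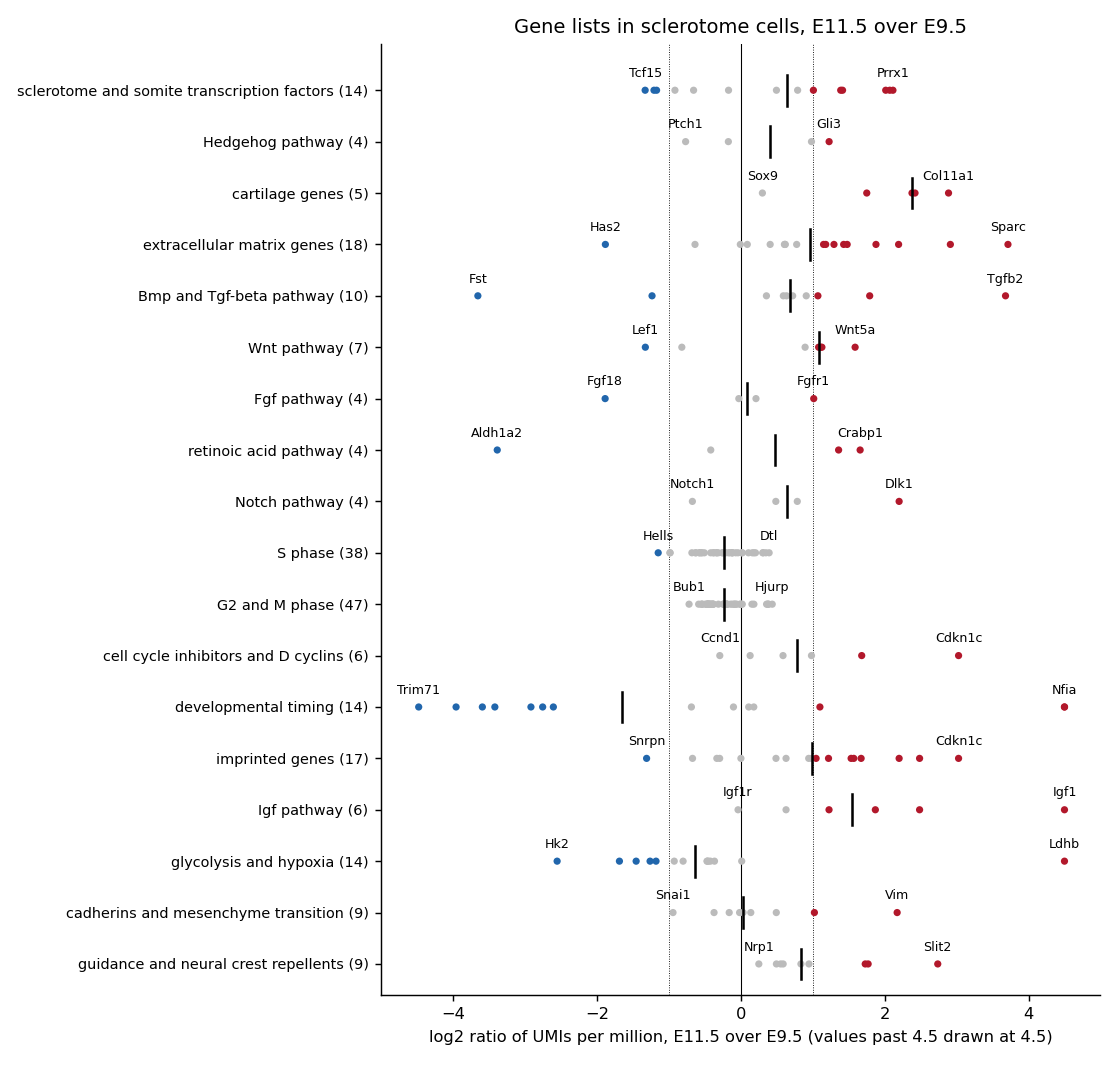
Each point is a gene with at least 100 UMIs, placed by its log2 ratio of UPM, E11.5 over E9.5, in sclerotome cells. Rows are gene lists with the number of genes drawn, the black bar is their median, and the genes at the ends are named. Red and blue mark at least 2-fold. The cell cycle lists lie close to 0, and the timing list is spread from below -4 to the right edge.

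In the Hedgehog pathway, which induces the sclerotome, 1 of 4 compared genes was at least 2-fold higher and 0 lower, against 6.76% and 5.27% of all genes. Ptch1, the receptor and a transcriptional target of the pathway, had 124 UPM (110 to 139) at E9.5 and 72.8 UPM (54.9 to 94.8) at E11.5. Smo, the signal transducer, had 68.7 and 60.9 UPM and Gas1, a co-receptor, 143 and 283 UPM. Gli3, the transcription factor that acts mainly as a repressor, rose from 31.1 to 72.8 UPM. At E11.5 Ptch1 had 72.8 UPM in sclerotome cells and 12.5 UPM in the tendon progenitor class (1418 cells). That class was named by its Scx rule, and whether its cells came from somites was not tested. The Gli motif GACCACCCA was searched on both strands in the RefSeq promoters (GRCm38.p6) of 12 of the 17 listed genes and was found in 0 of them, while 83 of 32851 promoters (0.253%) held it. At that share 0 matches was the likely outcome for any 12 genes, so the search does not bear on Gli sites in these genes.

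Bmp and Tgf-beta genes gave 3 of 10 at least 2-fold higher and 2 lower, again against 6.76% and 5.27% of all genes. Besides Tgfb2 and Fst, Id3, a Bmp target, rose from 177 to 612 UPM, while Id1 and Id2 had log2 ratios of 0.59 and 0.36. Acvr2b, an activin receptor, fell from 103 to 43.7 UPM. In the Wnt list 4 of 7 were higher and 1 lower, to be read against the same shares. Wnt5a, a non-canonical ligand, rose from 23.3 to 70.2 UPM, the co-receptor gene Lrp6 from 36.3 to 76.8 UPM and Lgr4 from 37.6 to 82.1 UPM. Sfrp2, a Wnt antagonist, went from 54.0 to 117 UPM with 28 of 88 UMIs in 1 cell. Lef1, a mediator of Wnt transcription, fell from 43.2 to 17.2 UPM. Fgf18 fell from 44.1 UPM (35.9 to 53.5) to 11.9 UPM (5.45 to 22.6) and Fgfr1 rose from 54.4 to 110 UPM. At E9.5 Fgf18 stood at 44.1 UPM in sclerotome cells against 6.39 UPM in the cartilage precursor class. Dlk1, a Notch-related ligand, rose from 80.4 to 369 UPM with 47 of 279 UMIs in 1 cell, and Notch1, Notch2 and Hes1 stayed within 2-fold.

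Retinoic acid genes parted by role. The synthesis gene Aldh1a2 fell, as given above, while the binding proteins rose. Crabp1 went from 129 to 408 UPM and Crabp2 from 95.5 to 245 UPM. In the wider set the log2 ratios were 0.86 for Crabp1 and 0.05 for Crabp2, below 2-fold for both genes.

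Few cell cycle genes passed 2-fold. Of 38 compared S phase genes 0 were at least 2-fold higher and 1, Hells, was lower, against 6.76% and 5.27% of all genes. Of 47 G2 and M phase genes 0 passed 2-fold either way. Summed S phase genes went from 5662 UPM (5566 to 5760) to 4574 UPM (4423 to 4729), and G2 and M phase genes from 11337 to 9308 UPM. The Pax3 class had 5675 and 4519 UPM of S phase genes. Ccnd2, cyclin D2, rose from 273 to 877 UPM, whereas Ccnd1 had 217 and 177 UPM.

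Imprinted genes, expressed from 1 parental allele and many of them growth regulators, gave 8 of 17 at least 2-fold higher and 1 lower, where 6.76% and 5.27% of all genes did so. Igf2, the fetal growth factor, rose from 99.8 UPM (87.3 to 114) to 559 UPM (507 to 615) and was seen in 98.5% of E11.5 cells against 25.3% of the Sox2 class (87.9% and 14.6% at equal depth). H19, which lies beside Igf2, rose from 307 to 911 UPM, Peg3 from 390 to 1242 UPM, Nnat from 404 to 1171 UPM and Meg3 from 295 to 686 UPM. Mest had 1746 and 1424 UPM, and Snrpn, whose transcript also carries Snurf, fell from 65.7 to 26.5 UPM. In the Igf list 4 of 6 genes were higher, read against the same 6.76%, namely Igf1, Igf2, Igfbp5 and Igfbp4, and the receptor genes Igf1r and Igf2r had log2 ratios of -0.04 and 0.63. Igfbp5 rose from 96.3 to 352 UPM, with a log2 ratio of 1.87 here and 0.51 in the wider set.

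Of 14 compared glycolysis and hypoxia genes 5 were at least 2-fold lower and 1 higher, against 5.27% and 6.76% of all genes, with a median log2 ratio of -0.64. Ldha, the subunit that favours lactate formation, fell from 1937 UPM to 601 UPM, while Ldhb rose as given above. Hk2, hexokinase 2, fell from 62.2 to 10.6 UPM, Pgam1 from 1413 to 515 UPM, Aldoa from 807 to 356 UPM and Slc16a3, a lactate exporter, from 63.5 to 26.5 UPM. Gapdh and Pkm had log2 ratios of -0.47 and -0.93. Pgam1, Aldoa and Gapdh have near-identical pseudogenes that could share reads. In the Pax3 class Ldha had a log2 ratio of -1.01 and Pgam1 of -0.83.

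Of 9 compared genes of the list of cadherins and mesenchyme transition, 2 were at least 2-fold higher and 0 lower, against 6.76% and 5.27% of all genes, with a median log2 ratio of 0.03 against -0.02 over all genes. Vim, which encodes the intermediate filament protein vimentin, rose from 122 to 550 UPM, and Cdh11, the mesenchymal cadherin, from 117 to 237 UPM. Cdh2, Zeb1, Zeb2 and Snai1 stayed within 2-fold. Of 9 guidance genes 3 were higher, against the same 6.76%, namely Slit2 (14.7 to 98.0 UPM), Efna5 (30.7 to 105 UPM) and Sema5a (26.4 to 87.4 UPM). Slit2, a repellent of axons, had 18 of its 74 E11.5 UMIs in 1 cell and a log2 ratio of 0.67 in the wider set. Of the bone and perichondrium list only Atf4 was compared (98.9 and 95.3 UPM), and of the tendon list only Tcf4, which rose from 170 to 355 UPM.

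Hox genes give the position of a cell along the body axis, with higher paralog numbers toward the tail. In E9.5 sclerotome cells UMIs were found from paralog group 1 to group 9, and none of group 10 or above. In E11.5 cells Hoxa10, Hoxc10 and Hoxd10 had 74, 91 and 19 UMIs in 23, 27 and 8 of 65 cells, or 98.0, 121 and 25.2 UPM. At equal depth Hoxa10, Hoxc10 and Hoxd10 were seen in 25.9%, 32.8% and 8.62% of E11.5 sclerotome cells and in 12.7%, 17.6% and 1.12% of the Sox2 class. Against a floor of 3 UMIs over the E9.5 cells these 3 genes, below the 100 UMI minimum and named after their values were seen, were at least 75.6-fold, 93.0-fold and 19.4-fold higher, which takes the E11.5 counts as exact. With the counting error of both counts the lower bounds of the log2 ratios were 5.91, 6.21 and 3.84, which are smaller differences. Hoxc9 rose from 4.75 to 84.8 UPM and Hoxa9 from 9.07 to 94.0 UPM, both below the 100 UMI minimum. Of the 11 compared Hox genes 3 were higher and 2 lower, against 6.76% and 5.27% of all compared genes. Hoxc8 rose from 27.6 to 175 UPM, Hoxc6 from 30.7 to 118 UPM and Hoxa7 from 63.1 to 222 UPM. Hoxd4 fell from 51.4 to 11.9 UPM and Hoxb9 from 111 to 39.7 UPM. The axial level of single cells is not recorded, so stage cannot be told apart from axial level.

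**Figure D4:**
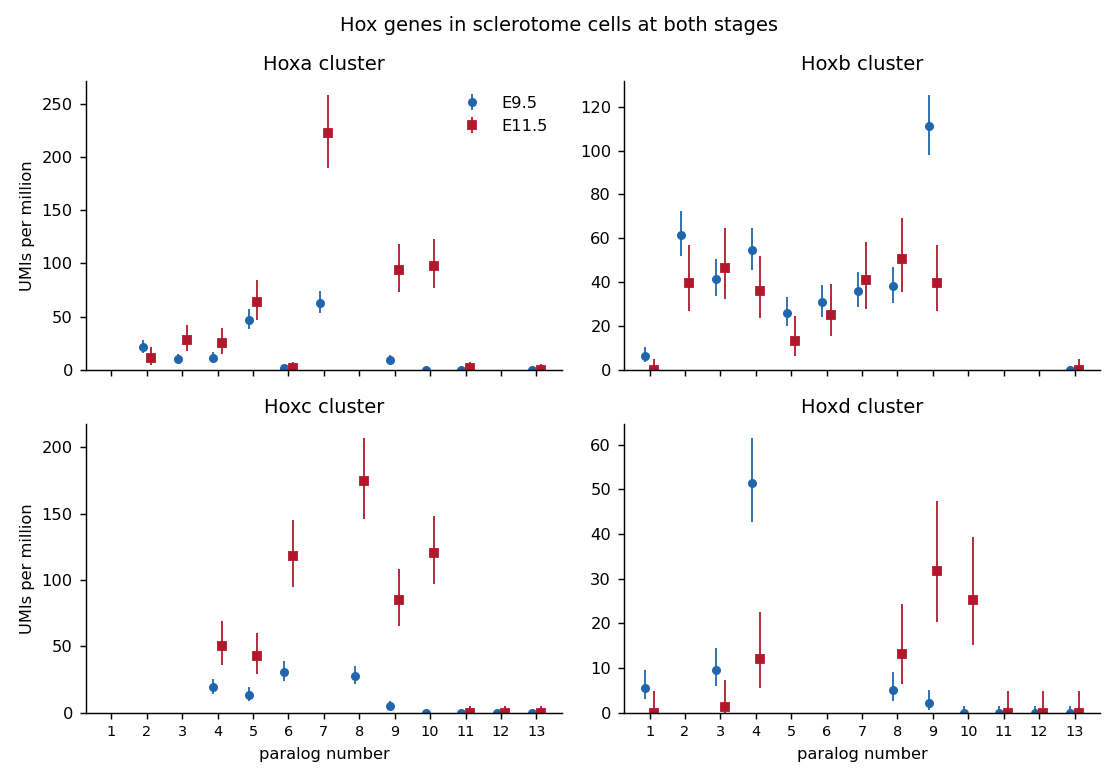
Level (UPM) of Hox genes by cluster and paralog number in sclerotome cells at E9.5 (blue circles) and E11.5 (red squares), with exact 95% Poisson intervals. Groups 9 and 10 of the Hoxa, Hoxc and Hoxd clusters, Hoxa7, Hoxc6 and Hoxc8 stand out at E11.5, and Hoxb9 and Hoxd4 at E9.5.

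Finally, anterior and posterior sclerotome were compared within each stage. Cells with a UMI of Uncx (chr5:139543494-139548179, plus strand), a homeobox gene of the posterior part, and none of Tbx18 were called posterior-type. Cells with Tbx18 (chr9:87702800-87731260, minus strand), a T-box gene of the anterior part, and no Uncx were called anterior-type. At E9.5 there were 51 posterior-type and 27 anterior-type cells, 1 with both genes and 78 with neither. At E11.5 there were 5, 11, 1 and 48. At E9.5 Tbx18 was in 1 of 52 cells with Uncx (1.92%, exact binomial 95% interval 0.0487% to 10.3%) and in 27 of 105 without (25.7%, 17.7% to 35.2%). At E11.5 it was in 1 of 6 cells with Uncx (16.7%, 0.421% to 64.1%) and in 11 of 59 without (18.6%, 9.69% to 30.9%). In the wider set it was in 5 of 100 and 80 of 290 at E9.5, and in 4 of 133 and 86 of 321 at E11.5. The Sox2 class held Uncx in 2.52% and Tbx18 in 2.74% of cells at E9.5. Median depth was 13957 UMIs in posterior-type and 12477 in anterior-type cells in the E9.5 library, then 8905 and 12496 in the E11.5 library.

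At E9.5, 6 of 1852 compared genes (0.324%) were at least 2-fold higher in anterior-type cells and 4 (0.216%) in posterior-type cells. At E11.5, 13 of 304 (4.28%) and 3 (0.987%) were, from 11 and 5 cells. Without the cell with 5 Gata4 UMIs, an anterior-type cell, the first count was 8. Crabp1, a retinoic acid binding protein, was on the anterior side in both libraries, with 458 against 49.1 UPM at E9.5 (log2 3.22, 2.71 to 3.77) and 47 against 0 UMIs at E11.5. At E9.5 its 182 anterior-type UMIs lay in 15 of 27 cells and its 38 posterior-type UMIs in 22 of 51 cells. The 47 UMIs at E11.5 lay in 5 of 11 anterior-type cells. Asb4, a ubiquitin ligase subunit, had 75.5 against 5.17 UPM at E9.5 and 66 against 3 UMIs at E11.5. Myl9 had 16 against 4 UMIs and 28 against 0, and Vim 171 against 85.2 UPM and 91 against 2 UMIs. Ptn, Tmsb4x, Ebf1, Meis2, Fstl1 and Nenf completed the 10 ranked genes. The ranking had no minimum of UMIs, so most of these genes were not among those counted at E11.5, where Ptn and Tmsb4x alone of the 10 reached 100 UMIs. At E9.5 Asb4, Myl9, Ebf1 and Nenf did not reach it. The 10 on the posterior side were all within 2-fold at E9.5, with log2 ratios of -0.26 for Hnrnpa1 and -0.91 for Kdm1a. Among them were also Hsp90aa1, Vps72, Dennd5b, Hspe1, Rpl23a, Mif, Kdm1a and Hnrnpab.

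Some genes of the lists stood apart at E9.5. Meox1 had 550 UPM in posterior-type and 259 UPM in anterior-type cells. Zic1 had 46 against 1 UMIs and Plxna2, a semaphorin receptor, 36 against 1 UMIs. Nrp2, another semaphorin receptor, had 128 UPM in anterior-type and 28.4 UPM in posterior-type cells. Zic1, Plxna2 and Nrp2 had fewer than 100 UMIs over both classes, and the 4 genes were named after their values were seen. At E11.5, with 5 posterior-type cells, Meox1 had 7 UMIs in posterior-type and 30 in anterior-type cells, Zic1 5 and 26, Plxna2 0 and 4, and Nrp2 6 and 20. In UPM the E11.5 values were 149 and 188 for Meox1, 106 and 163 for Zic1 and 128 and 125 for Nrp2, so the E9.5 order of these 3 genes did not recur in these few cells.

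The wider set with or without Col9a1 gave larger classes, 80 anterior-type and 95 posterior-type cells at E9.5, then 86 and 129. Asb4 (62.8 against 14.4 UPM, then 390 against 83.0 UPM) and Crabp1 (218 against 47.3 UPM, then 205 against 65.4 UPM) ranked highest on the anterior side. Nrp2 had 129 against 26.7 UPM and 155 against 62.0 UPM. Frzb, a secreted Wnt antagonist, Rspo3, a Wnt enhancer, Prrx1, Nr2f1 and Tagln were also anterior at both stages. Phox2a and Isl1, genes of neurons, ranked there on few cells. Phox2a had 8 against 0 UMIs at E9.5 and 18 against 1 at E11.5, in 1 anterior-type cell each time, and Isl1 had 10 against 1 and 16 against 1, in 2 anterior-type cells each time. On the posterior side Plxna2 had 41.8 against 9.20 UPM and 28.4 against 7.55 UPM, Mycn 154 against 80.5 UPM and 99.5 against 43.6 UPM, and Tle4, a co-repressor, 74.1 against 25.3 UPM and 49.5 against 21.0 UPM. Meox1 was on the posterior side at both stages here, with 533 against 279 UPM and 97.2 against 63.8 UPM (log2 -0.61, -1.02 to -0.21, at E11.5). Zic1 was posterior at E9.5 (52.8 against 15.3 UPM) and equal at E11.5 (198 against 196 UPM). Ptn was anterior at E9.5 (264 against 145 UPM) and not at E11.5 (301 against 315 UPM).

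**Figure D5:**
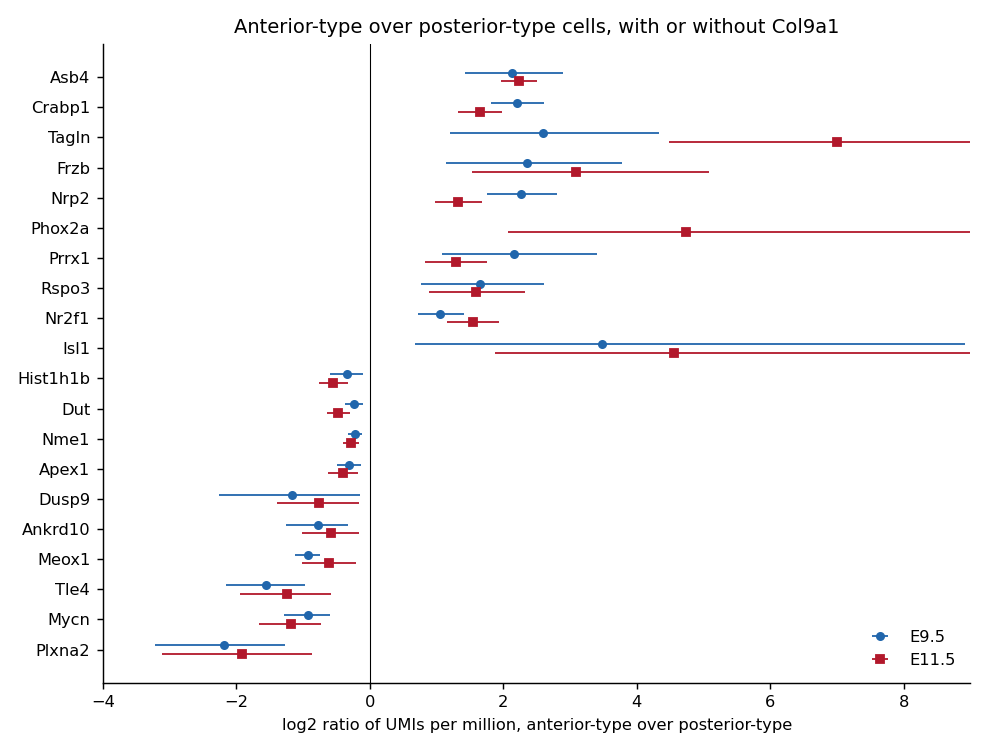
log2 ratio of UPM, anterior-type over posterior-type, at E9.5 (blue circles) and E11.5 (red squares) with exact 95% intervals, for the 20 genes ranked on both stages in the set with or without Col9a1. Asb4 and Crabp1 lie above 1.5 at both stages and Plxna2 below -1.5. No E9.5 point is drawn for Phox2a, which had 0 UMIs in posterior-type cells and came from 1 anterior-type cell at each stage.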

How the data were processed

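Per the labels, somites of 3 embryos at each stage were pooled, dissociated and captured on the 10x Genomics platform, and the authors' processing notes name Cell Ranger 3.0.1 and mm10. The deposited files hold UMI counts per gene and cell, unnormalised, with 27998 genes. Cells with at least 200 and fewer than 6500 genes and under 15% mitochondrial UMIs were kept (270 and 572 barcodes removed), as in the study's methods.

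For each class of cells, UMIs were added per gene and scaled to 1000000 UMIs of that class. Intervals are exact Poisson, exact binomial (Clopper-Pearson) and the exact interval of a ratio of 2 Poisson counts. They cover counting error only. With 1 library a stage, no test was made. Equal-depth shares used 5000 UMIs drawn per cell. A class at 0 UMIs was set to a floor of 3 for a bound on the fold. Doublets were called with Scrublet (scanpy 1.11.5) and kept. Python 3.11.15, numpy 2.4.6, scipy 1.17.1 and pandas 2.3.3 were used, and the code was tested on simulated data. No protein sequence was used here. Gene positions matched for 4152 of 4154 compared genes.

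Members and gene lists were chosen with earlier results of these data known. Named genes were those of the rule, of the lists, the 15 highest and 15 lowest between stages without mitochondrial, ribosomal and other-cell-type genes, the 10 highest against other cells, and the 10 on each side of the anterior and posterior comparison. Values of some of these genes are not reported here.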

Additional observations from a re-analysis of the deposited data

Results flagged for a closer look

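A few genes went one way by at least 2-fold in sclerotome cells and the opposite way in another class of the same libraries, and the difference between classes was not tested. Crabp1 had a log2 ratio of E11.5 over E9.5 of 1.66 in sclerotome cells, -1.60 in the Pax3 class and -4.19 in the Sox2 class. Crabp2 had 1.36, with -1.34 in the Pax3 class and -1.81 in the Sox2 class. These 2 ratios depended on the genes required absent. Without the Col9a1 condition they were 0.86 for Crabp1 and 0.05 for Crabp2, and with no genes required absent 0.19 and -0.78. Ebf1 had 1.39 against -1.97 in the Pax3 class, and Fli1, an Ets factor of endothelium and mesenchyme, 1.18 against -1.34. Ccnd2 had 1.68 against -1.64 in the Sox2 class, and Gsta4, a glutathione transferase, 1.27 against -1.41. Hopx was the reverse, with -2.12 in sclerotome cells and 3.53 in the Sox2 class. Fli1, Gsta4 and Hopx are named because of these values.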

How the results depend on the processing

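The share of sclerotome cells depended on the rule. With at least 5 marker UMIs it was 1.00% at E9.5. With all 3 marker genes required, 2 cells and 1 cell remained (0.0203% and 0.0104%), with 7 genes higher and 8 lower at E11.5. With no genes required absent the shares were 4.79% and 7.23%, with 1037 genes higher and Crabp2 at -0.78. With cells thinned to 5000 UMIs before the rule, and shallower cells left out, the shares were 0.719% and 1.08%, with 73 genes higher and 36 lower. In that setting 0 genes passed 2-fold between anterior-type and posterior-type cells at either stage. Without the Col9a1 condition, an alternative chosen after seeing the data, the shares were 3.96% and 4.73%, 843 genes were higher, 45 and 17 genes were on the anterior and posterior side at E11.5, and Ptn and Kdm1a turned there to -0.064 and 0.0213. A minimum of 50 UMIs gave 593 genes higher and 341 lower, and one of 300 UMIs 65 and 81. For anterior and posterior sides the minimum of 50 UMIs gave 17 and 16 genes at E9.5, then 42 and 10 at E11.5, and that of 300 UMIs gave 0 and 1, then 0 and 0. The anterior count at E11.5 was 8 without Scrublet calls and 8 without the cell with 5 Gata4 UMIs (also chosen after seeing the data). At least 2 UMIs of Uncx or Tbx18 gave 1 anterior gene at E9.5, and centring on the median gave 1 posterior gene at E11.5. The causes were not tested, but more or fewer cells and UMIs change how many genes reach the minimum.

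Of the 30 genes ranked highest and lowest between stages, 29 were still past 2-fold in the same direction with no condition on Col9a1 or on absent genes, the exception being Mycn. No paired analysis was possible because each stage was 1 library. For the same reason no library could be left out. The E11.5 anterior and posterior comparison rests on 5 posterior-type cells with 47026 UMIs.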

Other observations

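Some genes stood at different levels in sclerotome cells and stage-matched classes, and they are named for these values. At E9.5 the acute phase genes Saa1 and Saa2 had 31.5 and 29.4 UPM in sclerotome cells against 2.45 and 2.75 UPM in the Pax3 class. Against the cartilage precursor class, E11.5 sclerotome cells had more Ntn1, the guidance cue netrin 1 (68.9 against 13.5 UPM), Cdh4 (49.0 against 8.81 UPM) and March11 (83.4 against 16.5 UPM). The tendon progenitor class was named by its Scx rule and held Pax1 in 10.5% of its E11.5 cells, so it may not be axial tendon, which was not tested. Against that class E11.5 sclerotome cells had more Foxc1 (216 against 21.5 UPM), Foxd1 (395 against 77.6 UPM), Cxcl12 (286 against 48.9 UPM) and Cthrc1 (303 against 63.0 UPM). Pitx1 and Tbx3 ran the other way, with Pitx1 at 3.97 against 139 UPM and Tbx3 at 11.9 against 168 UPM. Nothing in the rule used these genes.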
